A study of Caenorhabditis elegans with 24 samples.

Results

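The small heat shock genes described here are 10 genes of *C. elegans*, selected by their sequence names: *hsp-12.6* (F38E11.2), *hsp-12.3* (F38E11.1), *hsp-12.1* (T22A3.2), *hsp-12.2* (C14B9.1), *hsp-16.1* (T27E4.8), *hsp-16.2* (Y46H3A.3), *hsp-16.41* (Y46H3A.2), *hsp-16.48* (T27E4.3), F08H9.3 and F08H9.4. They are 10 of 21979 genes in an mRNA-seq table of sorted cells. The abundance of each gene is the sum of the TPM (a length-corrected share of the transcripts of a library, so that all libraries have an equal total) of all its transcripts. Of the 10, 9 were above 0 in at least 1 library, and 8 passed the filter of at least 1 TPM in at least 3 libraries, which 14714 genes passed in all. The 2 that did not were *hsp-16.1*, which was listed at 0 in all 24 libraries, and F08H9.3, whose highest value was 1.76 TPM.

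Small heat shock proteins share the alpha-crystallin domain, form oligomers and hold unfolding proteins in a soluble state without using ATP. The HSP-16 proteins of *C. elegans* are scarce in unstressed animals and are strongly induced by heat and other stress through the transcription factor HSF-1. The HSP-12 proteins are shorter, with trimmed ends on both sides of the domain, and several showed no chaperone activity in vitro. *hsp-12.6* and genes of the *hsp-16* family are known as targets of DAF-16, the FOXO transcription factor that insulin/insulin-like growth factor signaling (IIS) keeps out of the nucleus, and small heat shock genes are required for the full lifespan extension of *daf-2* mutants.

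The study asked which transcripts depend on DAF-16 in body wall muscle at low and at high IIS. Young adults of 4 strains, all with a GFP transgene that marks body wall muscle, were dissociated and sorted: GFP-positive, propidium iodide-negative cells make up the muscle cells, and propidium iodide-negative cells collected without the GFP gate make up the all cells. The groups are *daf-2(lf)* with 3 muscle cell and 3 all cells libraries, the double mutant *daf-16(lf); daf-2(lf)* with 3 and 3, *daf-16(lf)* with 4 and 2, and wild-type with 4 and 2, which gives 14 muscle cell and 10 all cells libraries. *daf-2(lf)* is the temperature-sensitive e1370 allele of the insulin receptor gene and *daf-16(lf)* is the mu86 deletion. Wild-type and *daf-16(lf)* animals grew at a single temperature throughout. Both *daf-2(lf)* strains grew at a lower, permissive temperature until the last larval stage and were then moved to the temperature of the other strains, which inactivates the *daf-2(e1370)* product. Thus IIS state and rearing temperature, including a recent upward shift, cannot be told apart in any comparison between *daf-2(lf)* strains and *daf-2(+)* strains. Dissociation and sorting were common to all groups. Libraries were made with either of 2 kits, and which library had which kit is not given in the sources used here.

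Some values were at odds with the labels of their libraries, and the reason was not tested. *daf-16* transcript R13H8.1a.1 was at 0 in all 12 libraries of the *daf-16(lf)* strains, at 4.15 to 26.9 TPM in *daf-2(lf)* libraries and at 1.16 to 1.78 TPM in wild-type muscle cells, but the pair of libraries labelled wild-type all cells also stood at 0. No test compares these 2 libraries with others. They did enter the filter, the shared estimate of the spread in the model and the correlations over the 24 libraries. Their levels and ratios are also given as description, and the ratios are counted with those of the *daf-2(+)* strains. The number of genes above 0 was 9198 in replicate 1 of them and 12462 to 19172 in the other 23 libraries. The 10 body wall muscle markers examined summed to 5081 to 5700.3 TPM in *daf-2(lf)* all cells and 4787 to 5603 TPM in double mutant all cells, against 32295 to 44711 TPM in muscle cells of these strains. In *daf-16(lf)* all cells they summed to 67604 to 67921 TPM, inside the range of *daf-16(lf)* muscle cells (53733 to 104813 TPM), and the 8 intestinal markers summed to 121.9 to 244 TPM there, against 1248 to 2877 TPM in all cells of the *daf-2(lf)* strains. The 6 hypodermal markers summed to 1981 to 2354 TPM in *daf-16(lf)* all cells and 1626 to 2851 TPM in all cells of the *daf-2(lf)* strains. Their mean log2(TPM + 1), however, was 3.45 in *daf-16(lf)* all cells, against 6.85 in *daf-2(lf)* and 7.35 in double mutant all cells. Of the 6, 5 passed as higher and 0 as lower in double mutant against *daf-16(lf)* all cells. Of all genes tested, 56.5% passed there (limma, adjusted p under 0.05). No marker was at 0 in all libraries of a group.

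*hsp-12.6* (chromosome IV of WBcel235, 9446229 to 9447228, reverse strand) was found almost only in *daf-2(lf)* libraries. In muscle cells it had 107, 4.65 and 28.4 TPM in *daf-2(lf)*, and 0.190, 0.188 and 1.44 TPM in the double mutant. Replicate 2 of *daf-2(lf)* was far below the other 2 *daf-2(lf)* libraries, but still above every double mutant library. In *daf-16(lf)* muscle cells 1 library had 0.355 TPM and the other 3 were listed at 0, and *hsp-12.6* was listed at 0 in all 4 wild-type muscle cell libraries. In all cells it had 85.9, 33.9 and 84.0 TPM in *daf-2(lf)*, against 0.524, 0.711 and 1.02 TPM in the double mutant. All 4 other all cells libraries were listed at 0. No *daf-2(lf)* library overlapped with a library of another strain, while the double mutant and *daf-16(lf)* overlapped in muscle cells. How many of all genes had levels without overlap between groups was not counted, here or for the genes below.

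F08H9.4 (chromosome V, 14463520 to 14464428, reverse strand), an uncharacterized gene with an alpha-crystallin domain, was likewise highest in *daf-2(lf)*, but had its lowest group means in the double mutant. It overlaps *srz-97* on the same strand, so that reads may be shared. It had 10.8, 4.48 and 14.2 TPM in *daf-2(lf)* muscle cells, against 0.0636, 0.378 and 0 TPM in double mutant muscle cells. In all cells it had 3.41, 2.38 and 5.64 TPM in *daf-2(lf)*, against 0.351, 0.0595 and 0.0568 TPM in the double mutant. Each *daf-2(lf)* library was above each double mutant library in both cell populations. At high IIS its level was 0.853 ± 0.315 TPM in *daf-16(lf)* muscle cells and 0.983 ± 0.250 TPM in wild-type muscle cells (SD, n = 4 each), and the ranges of these groups overlapped. The double mutant was lower than *daf-16(lf)* by a difference that did not pass in limma. It was -0.69 in muscle cells (adjusted p = 0.128) and -0.65 in all cells (adjusted p = 0.179). All levels in these groups lie near 0 TPM. The gene next to F08H9.4, F08H9.3, lies 181 bases away on the same strand, but it stayed at or below 1.76 TPM in all 24 libraries. It had 0.550, 0.439 and 1.76 TPM in *daf-2(lf)* all cells and 0.823 and 0.668 TPM in *daf-16(lf)* all cells.

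**Figure D1:**
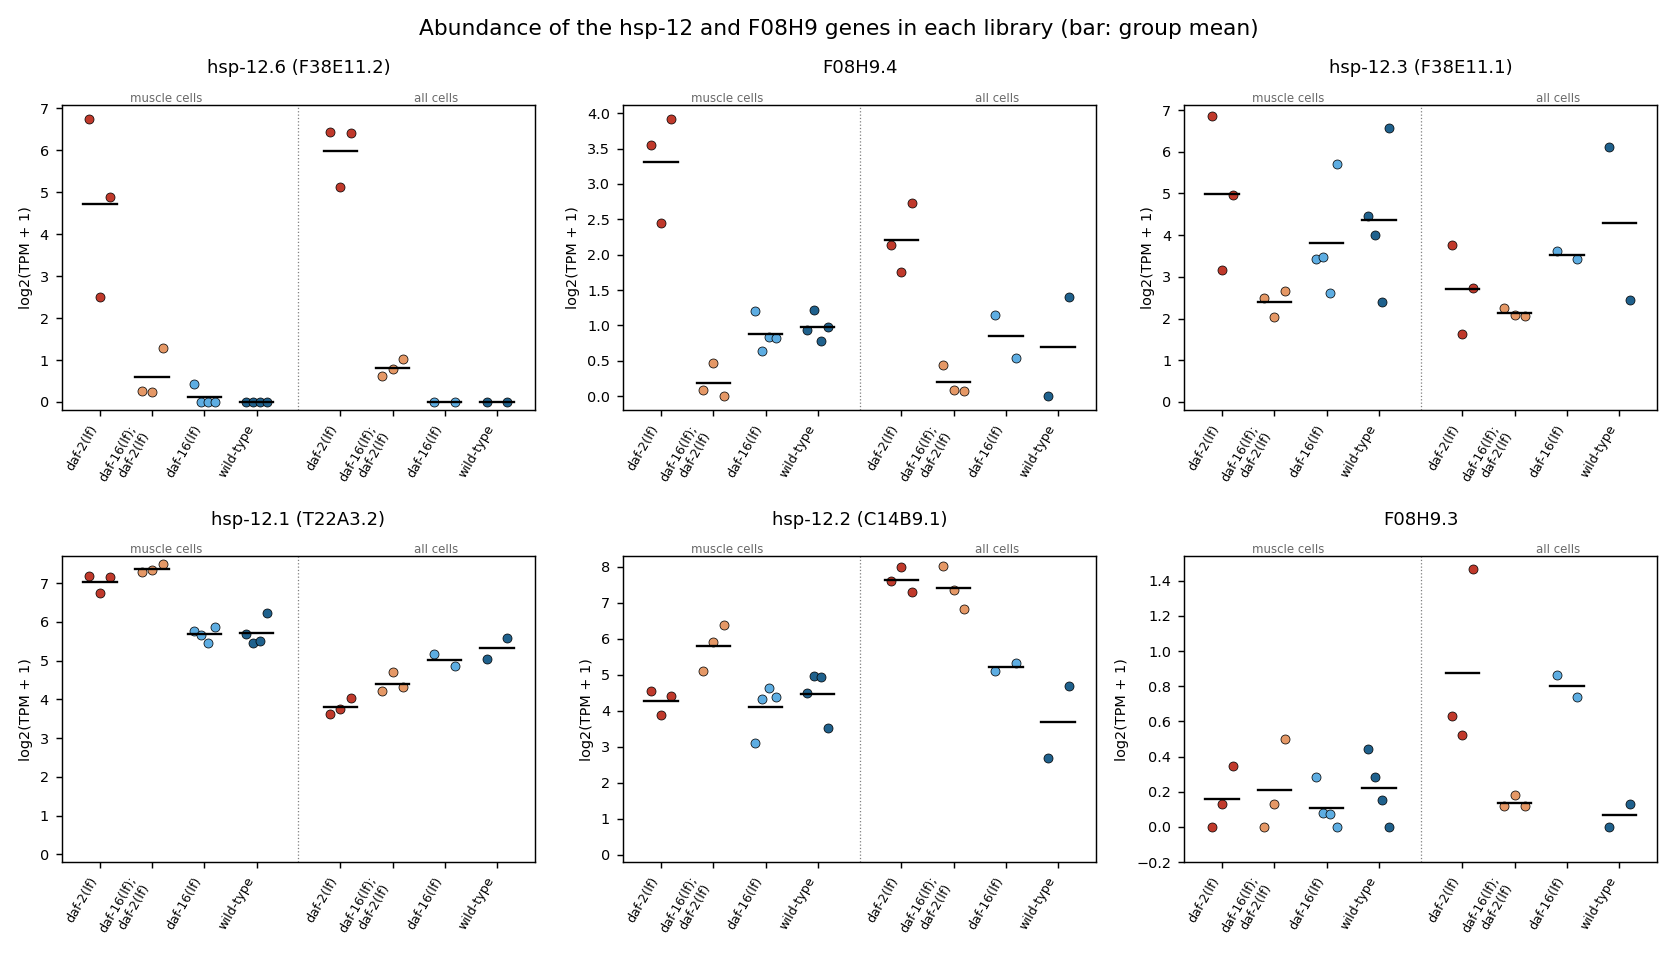
Each panel shows log2(TPM + 1) of 1 gene on the y axis in each library (points) and the group mean (bars), with the 4 strains in muscle cells on the left and in all cells on the right. *hsp-12.6* and F08H9.4 were higher in every *daf-2(lf)* library than in every double mutant library, *hsp-12.1* was higher in muscle cells of both *daf-2(lf)* strains than in the other strains, and F08H9.3 stayed at or below 1.76 TPM.

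Comparing *daf-2(lf)* with the double mutant asks what DAF-16 changes at low IIS with the rearing temperature held alike. In muscle cells 2 of the 8 genes tested passed the test, both higher in *daf-2(lf)*, while 0.612% of all genes tested did so (limma on log2(TPM + 1), adjusted p under 0.05 over all genes tested). *hsp-12.6* was higher by 4.12 ± 0.63 on the log2 scale (SE; adjusted p = 0.00127 from limma), a ratio of 77.1 between mean TPM, and F08H9.4 by 3.13 ± 0.36 (adjusted p = 4.39e-05), a ratio of 66.6. Differences on the log2(TPM + 1) scale understate the change of genes as low as F08H9.4. The ratios, however, rest on double mutant means near 0, of 0.604 TPM for *hsp-12.6* and 0.147 TPM for F08H9.4. Their size is therefore uncertain. In a model of the compared groups alone neither passed (adjusted p = 0.216 for *hsp-12.6* and 0.0553 for F08H9.4), and both passed whichever library was left out. The main model and those with a library left out share the spread with other groups. In some of these *hsp-12.6* was listed at 0 throughout.

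In all cells the same 2 genes passed, both higher in *daf-2(lf)*, against 2.43% of all genes tested. *hsp-12.6* was higher by 5.19 ± 0.63 (adjusted p = 9.44e-06 from limma), a ratio of 90.4 between mean TPM, and F08H9.4 by 2.01 ± 0.36 (adjusted p = 0.00167), a ratio of 24.5. These ratios too rest on low double mutant means, of 0.751 TPM for *hsp-12.6* and 0.156 TPM for F08H9.4. F08H9.4 did not pass after quantile normalization (1.01, adjusted p = 0.279) or median-of-ratios scaling (1.35, adjusted p = 0.166). No gene of the 8 passed the test of whether the difference of *daf-2(lf)* from the double mutant was of another size in muscle cells than in all cells, which 0.904% of genes passed in limma (700 genes and 2 of the 8, *hsp-12.2* and F08H9.4, had an unadjusted p under 0.05). For *hsp-12.6* that difference of differences, muscle cells minus all cells, was -1.08 (95% interval -2.93 to 0.77, adjusted p = 1.00 from limma) and for F08H9.4 it was 1.12 (0.04 to 2.19, adjusted p = 1.00).

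None of the other *hsp-12* genes passed in *daf-2(lf)* against the double mutant, and their differences were not tested against that of *hsp-12.6*. *hsp-12.3* lies 721 bases from *hsp-12.6* on the same strand of chromosome IV (9444791 to 9445507). It had 116, 7.95 and 30.1 TPM in *daf-2(lf)* muscle cells and 4.6, 3.12 and 5.36 TPM in double mutant muscle cells, with no overlap, but the difference of 2.60 ± 1.01 did not pass (95% interval 0.50 to 4.69, adjusted p = 0.411 from limma). The *daf-2(lf)* muscle replicates had the same order as for *hsp-12.6*, highest in replicate 1 and lowest in replicate 2. Its values were widely spread within groups: *daf-16(lf)* muscle cells had 9.83, 10.1, 5.16 and 51.1 TPM and wild-type muscle cells had 20.98, 14.9, 4.27 and 94.8 TPM. Replicate 4 was the highest of both these groups. In all cells it had 12.7, 2.10 and 5.64 TPM in *daf-2(lf)* and 3.74, 3.24 and 3.19 TPM in the double mutant, which overlapped.

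*hsp-12.1* (chromosome I, 10581538 to 10582615, reverse strand) was high in muscle cells of both *daf-2(lf)* strains. It had 145, 107 and 141 TPM in *daf-2(lf)* muscle cells and 155, 161 and 179 TPM in double mutant muscle cells, against 53.1, 49.4, 42.8 and 57.4 TPM in *daf-16(lf)* and 50.7, 42.5, 44.1 and 73.3 TPM in wild-type muscle cells. Every muscle cell library of the *daf-2(lf)* strains was above every one of the *daf-2(+)* strains. *daf-2(lf)* lay below the double mutant without overlap, a difference of -0.34 that did not pass (adjusted p = 0.812 from limma). It was higher by 1.32 ± 0.23 in *daf-2(lf)* than in wild-type muscle cells (adjusted p = 0.000121 from limma) and by 1.69 ± 0.23 in the double mutant than in *daf-16(lf)* (adjusted p = 7.67e-06). In all cells it had 11.2, 12.4 and 15.3 TPM in *daf-2(lf)* and 17.5, 24.9 and 18.9 TPM in the double mutant, all below the 35.3 and 27.8 TPM of *daf-16(lf)*.

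*hsp-12.2* (chromosome III, 8138077 to 8139631, forward strand), whose end overlaps C14B9.8, had its highest levels in all cells of the *daf-2(lf)* strains. There it had 193, 251 and 158 TPM in *daf-2(lf)* and 258, 162 and 113 TPM in the double mutant, against 33.3 and 38.8 TPM in *daf-16(lf)* all cells. In muscle cells it had 22.5, 13.7 and 20.3 TPM in *daf-2(lf)* and 33.6, 58.5 and 82.2 TPM in the double mutant, against 7.54, 18.9, 23.6 and 19.8 TPM in *daf-16(lf)* and 21.5, 30.1, 29.6 and 10.5 TPM in wild-type. All *daf-2(lf)* muscle values lay below all double mutant values, but the difference of -1.51 ± 0.50 did not pass (adjusted p = 0.256 from limma). Which of its 2 transcripts carried the signal also changed with the *daf-2* genotype: C14B9.1.2 made up 98.5 to 100% of the TPM of *hsp-12.2* in muscle cells of *daf-2(lf)* and 99.5 to 100% in those of the double mutant, against 6.87 to 26.3% in *daf-16(lf)* and 7.83 to 13.8% in wild-type muscle cells. This was common in the table: among 983 genes with several transcripts and at least 10 TPM in every muscle cell library, the share of the leading transcript did not overlap between the *daf-2(lf)* and the *daf-2(+)* strains in 63.5%. The part of the library kits in this was not tested.

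The *hsp-16* genes were high at high IIS, and *hsp-16.48* was the most abundant of the 10 genes in every muscle cell library. *hsp-16.2* (chromosome V, 1804334 to 1804957, reverse strand) and *hsp-16.41* (1805178 to 1805875, forward strand) stand back to back with 220 bases between them. *hsp-16.1* (9087293 to 9087782, reverse strand) and *hsp-16.48* (9088131 to 9088617, forward strand) form another such pair with 348 bases between them, which is duplicated next to it as T27E4.9 (9089280 to 9089766, reverse strand) and T27E4.2 (9090077 to 9090604, forward strand). T27E4.2, which RefSeq names *hsp-16.11*, is nearly identical to *hsp-16.1*, and T27E4.9, which it names *hsp-16.49*, to *hsp-16.48*. In the table *hsp-16.1* was listed at 0 in every library while T27E4.2 carried values, and T27E4.9 was not among the listed transcripts. Reads of the twins cannot be told apart, so the values of T27E4.2 are given below for *hsp-16.1* and T27E4.2 together, and those of *hsp-16.48* may hold reads of its twin.

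In muscle cells *hsp-16.48* had 167, 2110.3 and 1245 TPM in *daf-2(lf)* and 454, 816 and 184 TPM in the double mutant, against 4165, 2604, 4343 and 5220.2 TPM in *daf-16(lf)* and 4507, 5139, 4214 and 6985 TPM in wild-type. It ranked 28 to 46 among all 21979 genes in *daf-16(lf)* and 19 to 33 in wild-type muscle cells. No library of a *daf-2(lf)* strain reached the lowest *daf-2(+)* library, and *daf-2(lf)* replicate 1 lay far below the other 2 replicates. T27E4.2 had 155, 1049 and 373 TPM in *daf-2(lf)* and 306, 359 and 55.7 TPM in the double mutant, against 728, 545, 942 and 1474 TPM in *daf-16(lf)* and 673, 1211, 904 and 1716 TPM in wild-type. Here *daf-2(lf)* replicate 2 lay inside the range of wild-type.

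*hsp-16.2*, the member most used as a stress reporter, had 27, 103 and 54.5 TPM in *daf-2(lf)* and 68.5, 32.7 and 5.87 TPM in double mutant muscle cells, against 97.9, 70.9, 110.5 and 219 TPM in *daf-16(lf)* and 98.0, 159, 106 and 272 TPM in wild-type. Its neighbour *hsp-16.41* had 5.02, 55.9 and 22.5 TPM in *daf-2(lf)* and 29.2, 12.05 and 3.11 TPM in the double mutant, against 182, 144, 257 and 514 TPM in *daf-16(lf)* and 137, 382, 242 and 605 TPM in wild-type. For *hsp-16.41* the *daf-2(lf)* strains and the *daf-2(+)* strains were clearly apart, and for *hsp-16.2* *daf-2(lf)* replicate 2 reached the range of wild-type. Within *daf-2(lf)* muscle cells the libraries kept 1 order in all 4 *hsp-16* readouts, lowest in replicate 1 and highest in replicate 2, while *hsp-12.6* had the opposite order. Within the double mutant, replicate 3 was lowest in all 4.

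**Figure D2:**
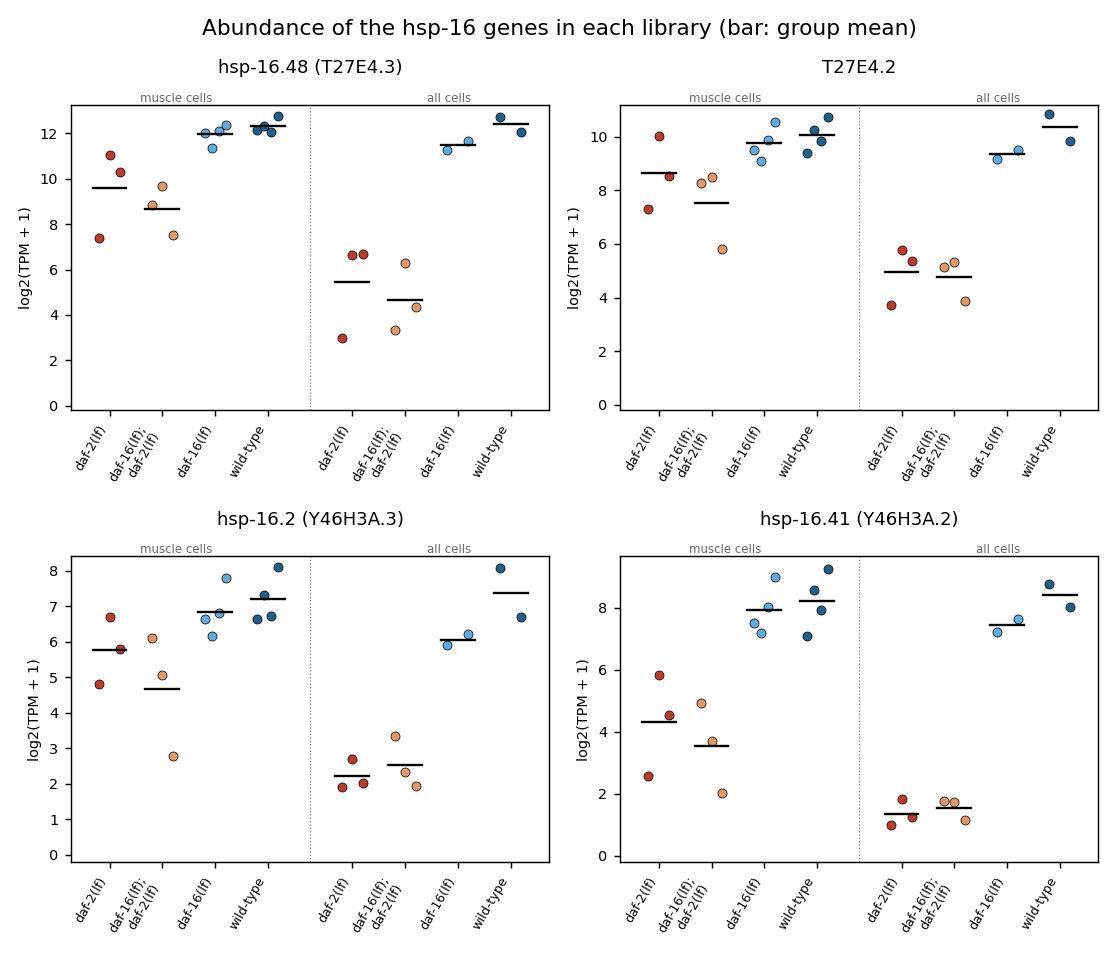
Each panel shows log2(TPM + 1) of 1 *hsp-16* gene on the y axis in each library (points) and the group mean (bars), with the 4 strains in muscle cells on the left and in all cells on the right. The lowest values of all 4 genes came from all cells of the *daf-2(lf)* strains, and libraries of the *daf-2(+)* strains were high in both cell populations.

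Comparing *daf-2(lf)* with wild-type muscle cells asks what loss of *daf-2* changes with DAF-16 present, and 5 of the 8 genes tested passed, 3 higher and 2 lower, against 32.5% of all genes tested. *hsp-12.6* (4.71 ± 0.59), F08H9.4 (2.33 ± 0.34, a ratio of 9.98 between mean TPM) and *hsp-12.1* were higher. The 10 muscle markers summed to 35694 to 44711 TPM in *daf-2(lf)* and 66164 to 97166 TPM in wild-type muscle cells. They did not all go 1 way: 3 passed as higher and 5 as lower in *daf-2(lf)*, beside the 32.5% of all genes tested. Their part in these differences was not tested. *hsp-16.41* was lower, with a difference of -3.89 ± 0.67 on the log2 scale (adjusted p = 0.000106 from limma), with a ratio of 0.0815 between mean TPM, and *hsp-16.48* with one of -2.75 ± 0.84 (adjusted p = 0.0152), with a ratio of 0.225. *hsp-16.48* did not pass without *daf-2(lf)* replicate 1 (-1.66, adjusted p = 0.156). *hsp-16.2* (-1.43 ± 0.62, adjusted p = 0.0838) and T27E4.2 (-1.43 ± 0.65, adjusted p = 0.102) did not pass, although both did after quantile normalization (adjusted p = 0.0376 and 0.0279) or without *daf-2(lf)* replicate 2 (adjusted p = 0.0469 and 0.0242).

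The same loss of *daf-2* without DAF-16, the double mutant against *daf-16(lf)* muscle cells, gave 5 of 8, 2 higher and 3 lower, against 32.1% of all genes tested. *hsp-12.1* and *hsp-12.2* (1.69 ± 0.46, adjusted p = 0.00765 from limma) were higher. *hsp-16.41* (-4.38 ± 0.67, adjusted p = 3.07e-05), *hsp-16.48* (-3.27 ± 0.84, adjusted p = 0.00472) and *hsp-16.2* (-2.19 ± 0.62, adjusted p = 0.00953) were lower, as was T27E4.2 (-2.23 ± 0.65, adjusted p = 0.0119). Without double mutant replicate 3 neither *hsp-16.2* (-1.25, adjusted p = 0.124), T27E4.2 (-1.37, adjusted p = 0.138) nor *hsp-12.2* (1.401, adjusted p = 0.0579) passed. The median of all genes tested in this comparison was 0.33, and with median-of-ratios scaling, where it was 0.07, *hsp-12.2* did not pass (adjusted p = 0.0765) and the split became 1 higher and 3 lower.

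Whether the effect of *daf-2* loss in muscle differed with and without DAF-16 was tested as a difference of differences. It passed for 2 of the 8 genes, against 0.163% of all genes tested: *hsp-12.6* with 4.22 ± 0.83 (95% interval 2.49 to 5.96, adjusted p = 0.0382 from limma) and F08H9.4 with 3.02 ± 0.48 (2.02 to 4.03, adjusted p = 0.00564). *hsp-12.6* did not pass in 11 of the 14 models that each left out 1 muscle cell library (estimates 4.05 to 4.26, adjusted p = 0.0594 to 0.103): any wild-type or *daf-16(lf)* library, *daf-2(lf)* replicate 3, or double mutant replicate 1 or 2. Without *daf-2(lf)* replicate 1 its estimate was 3.204 (adjusted p = 0.0498) and without *daf-2(lf)* replicate 2 it was 5.33 (adjusted p = 3.63e-05). It also did not pass without a filter (adjusted p = 0.0914) or in a model of the compared groups alone (adjusted p = 0.138), nor did F08H9.4 with a pseudocount of 0.1 (5.28, adjusted p = 0.0525). For the *hsp-16* genes the estimates were 0.76 for *hsp-16.2* (-1.07 to 2.58), 0.49 for *hsp-16.41* (-1.47 to 2.45) and 0.53 for *hsp-16.48* (-1.94 to 3.00), each with adjusted p = 1.00. At their upper ends these intervals reach beyond 2 on the log2 scale.

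**Figure D3:**
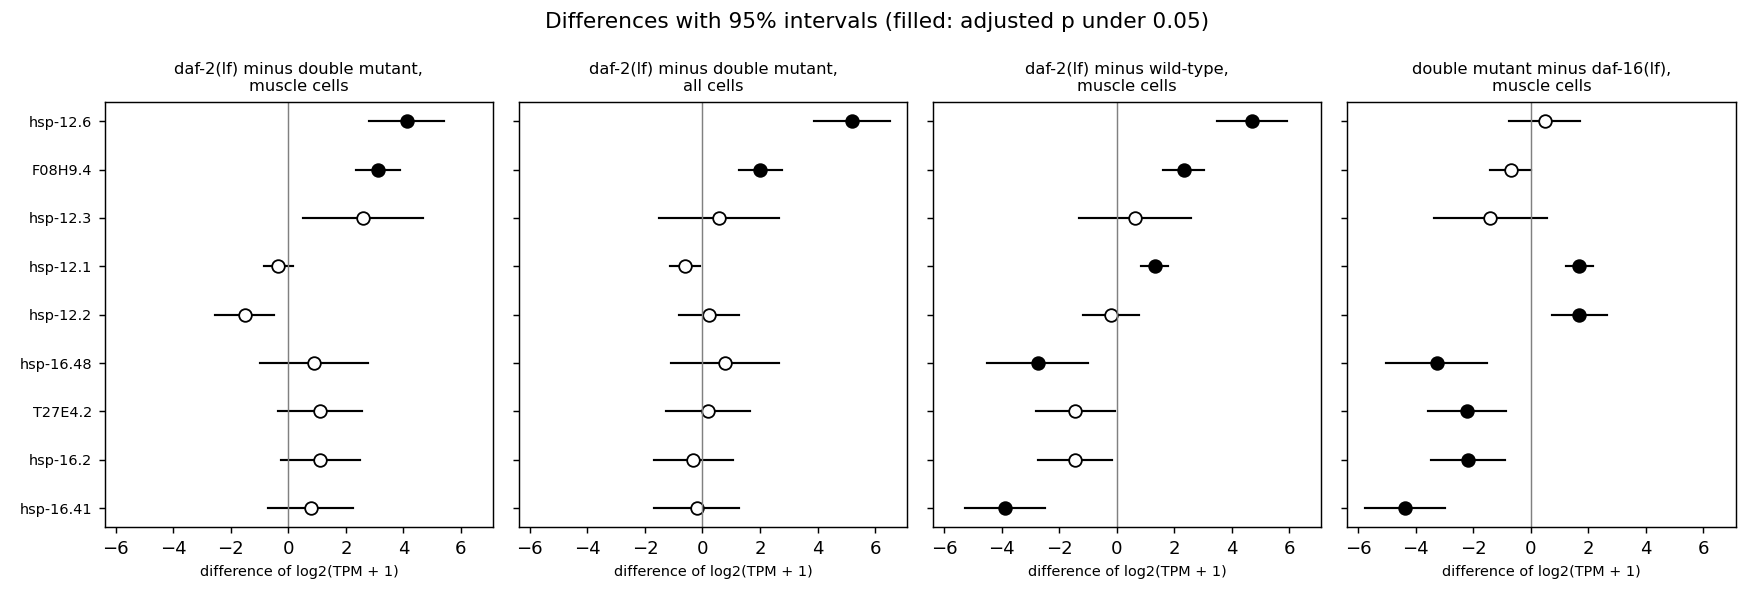
Differences of log2(TPM + 1) with their 95% intervals on the x axis, in 4 comparisons, for the 8 genes tested and T27E4.2 on the y axis. Filled points had an adjusted p under 0.05: *hsp-12.6* and F08H9.4 in the 3 comparisons of *daf-2(lf)* with another strain, with *hsp-12.1* at 1.32, *hsp-16.41* at -3.89 and *hsp-16.48* at -2.75 in *daf-2(lf)* minus wild-type, and *hsp-12.1*, *hsp-12.2*, *hsp-16.48*, T27E4.2, *hsp-16.2* and *hsp-16.41* in the double mutant minus *daf-16(lf)*.

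None of the *hsp-16* genes passed the test of *daf-2(lf)* against the double mutant. In muscle cells the differences were 1.11 for *hsp-16.2* (95% interval -0.27 to 2.48), 0.77 for *hsp-16.41* (-0.71 to 2.26), 0.90 for *hsp-16.48* (-0.97 to 2.76) and 1.10 for T27E4.2 (-0.36 to 2.55), with adjusted p from 0.740 to 0.895 (limma). In all cells they were -0.32 (-1.70 to 1.05), -0.20 (-1.69 to 1.28), 0.78 (-1.08 to 2.65) and 0.19 (-1.27 to 1.64), with adjusted p = 1.00 for each. Upper ends lay beyond 2 on the log2 scale for all 4 in muscle cells and for *hsp-16.48* in all cells. At high IIS, none of the 8 genes passed between *daf-16(lf)* and wild-type muscle cells, where limma called 0% of all genes tested (105 genes had an unadjusted p under 0.05 and the smallest adjusted p was 0.123). The differences of the 8 genes ran from -0.55 for *hsp-12.3* to 0.11 for *hsp-12.6*.

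The relative levels of the paired *hsp-16* genes also followed the *daf-2* genotype. A ratio within a library does not depend on how libraries are scaled to each other. The ratio of *hsp-16.41* to *hsp-16.2* was 0.186 to 0.545 in *daf-2(lf)* and 0.368 to 0.530 in double mutant muscle cells, against 1.86 to 2.35 in *daf-16(lf)* and 1.39 to 2.39 in wild-type muscle cells. All cells gave the same picture, with 0.354 to 0.467 in *daf-2(lf)* and 0.265 to 0.578 in the double mutant, against 2.51 and 2.70 in *daf-16(lf)* and 1.63 and 2.51 in the libraries labelled wild-type. All 12 libraries of the *daf-2(lf)* strains lay at or below 0.578 and all 12 of the *daf-2(+)* strains at or above 1.39, so that *hsp-16.2* was the more abundant of the pair in the *daf-2(lf)* strains and *hsp-16.41* in the others. The ratio of *hsp-16.48* to T27E4.2 was 0.265 to 3.34 in the *daf-2(lf)* strains and 3.54 to 6.70 in the *daf-2(+)* strains, apart by a narrow margin. These ratios were examined after the levels had been seen, and no test was made. How many other gene pairs separate the strains in the same way was not counted. Of all genes tested, 32.5% passed in limma between *daf-2(lf)* and wild-type muscle cells. Between the double mutant and *daf-16(lf)* muscle cells 32.1% passed. The part of the library kits in these ratios was not tested.

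**Figure D4:**
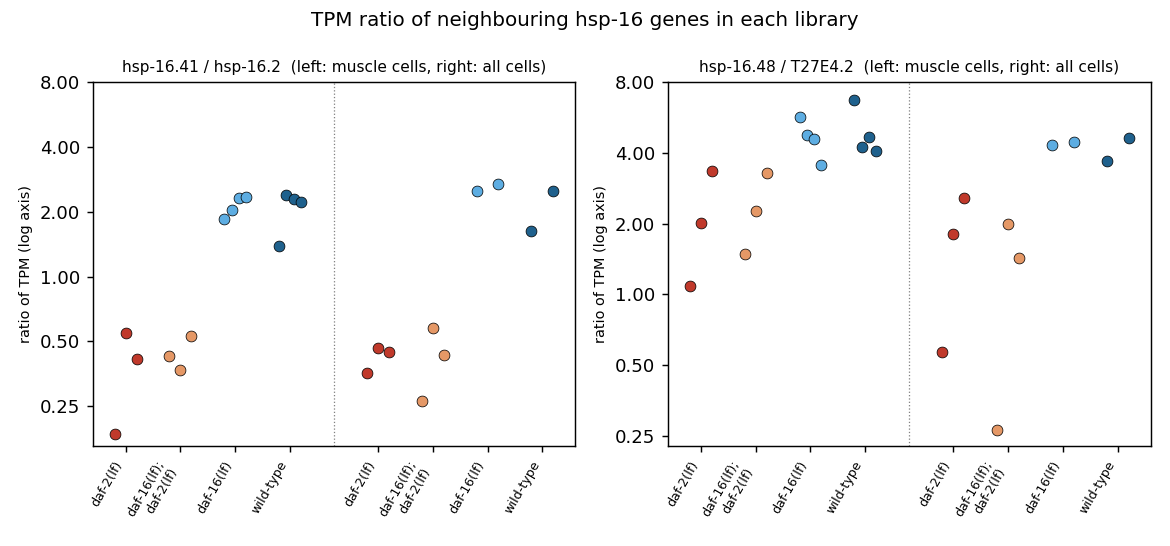
The ratio of TPM of *hsp-16.41* to *hsp-16.2* (left panel) and of *hsp-16.48* to T27E4.2 (right panel) in each library, on a log axis, with the 4 strains in muscle cells left and in all cells right of the dotted line. For *hsp-16.41* to *hsp-16.2*, the *daf-2(lf)* strains lay at 0.186 to 0.578 and the *daf-2(+)* strains at 1.39 to 2.70.

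In the *daf-2(lf)* strains the *hsp-16* genes and *hsp-12.1* were higher in muscle cells than in all cells, while *hsp-12.2* was lower. Against the muscle cell values above, *hsp-16.48* had 6.94, 98.4 and 103 TPM in *daf-2(lf)* all cells and 9.09, 77.5 and 19.3 TPM in double mutant all cells. *hsp-16.2* had 2.79 to 5.45 TPM in *daf-2(lf)* all cells and 2.84 to 9.12 TPM in double mutant all cells. For the *hsp-16* genes, muscle cells and all cells of these strains did not overlap, except for *hsp-16.2* in the double mutant. Together the 4 *hsp-16* readouts held 0.0354 to 0.332% of all TPM in *daf-2(lf)* muscle cells, against 0.00229 to 0.0161% in *daf-2(lf)* all cells. In bulk libraries more cells of a type and more RNA per cell cannot be told apart.

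Between muscle cells and all cells of *daf-2(lf)*, 7 of the 8 genes passed, 6 higher and 1 lower, against 72.3% of all genes tested, most of which were lower (median of all genes -1.26). *hsp-16.48* was higher by 4.13 ± 0.90 (adjusted p = 0.000435 from limma), *hsp-16.2* by 3.55 ± 0.66, *hsp-16.41* by 2.97 ± 0.71 and *hsp-12.1* by 3.24 ± 0.24 (adjusted p = 1.93e-09), while *hsp-12.2* was lower (-3.35 ± 0.50, adjusted p = 7.66e-06). F08H9.4 (1.10 ± 0.36) and *hsp-12.3* (2.28 ± 1.01, adjusted p = 0.0475) also passed. *hsp-12.3* did not pass without *daf-2(lf)* muscle replicate 1 (1.35, adjusted p = 0.259) or 3 (2.30, adjusted p = 0.0853) or without all cells replicate 2 (1.75, adjusted p = 0.169) or 3 (2.29, adjusted p = 0.0883), nor without a filter (adjusted p = 0.0711) or a trend (adjusted p = 0.0518), and F08H9.4 did not without muscle replicate 3 (0.79, adjusted p = 0.0742) or all cells replicate 2 (0.87, adjusted p = 0.0601) or with a pseudocount of 0.1 (1.28, adjusted p = 0.167). *hsp-12.6* did not pass (-1.28 ± 0.63, adjusted p = 0.0721). It passed without *daf-2(lf)* muscle replicate 1 (-2.30, adjusted p = 0.000541) or all cells replicate 2 (-1.72, adjusted p = 0.0320), and its difference was 0.01 after median-of-ratios scaling, where the median of all genes was -0.43.

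In the double mutant, 5 of 8 passed between muscle cells and all cells, 4 higher and 1 lower, against 67.7% of all genes tested (median -1.09). *hsp-16.48* was higher by 4.02 ± 0.90 (adjusted p = 0.000705 from limma), *hsp-12.1* by 2.97 ± 0.24, *hsp-16.2* by 2.12 ± 0.66 and *hsp-16.41* by 2.00 ± 0.71, and *hsp-12.2* was lower (-1.61 ± 0.50). Without double mutant muscle replicate 1, *hsp-16.2* (1.39, adjusted p = 0.0842), *hsp-16.41* (1.32, adjusted p = 0.141) and *hsp-12.2* (-1.26, adjusted p = 0.0553) did not pass, and without all cells replicate 3 *hsp-16.41* did not (1.80, adjusted p = 0.0625). *hsp-12.2* also did not pass after quantile normalization (-1.09, adjusted p = 0.101) or median-of-ratios scaling (-0.50, adjusted p = 0.457), where the split was 4 higher and 0 lower.

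At high IIS no *hsp-16* gene passed between the cell populations. *hsp-16.48* had 4165, 2604, 4343 and 5220.2 TPM in *daf-16(lf)* muscle cells and 2480.4 and 3214 TPM in *daf-16(lf)* all cells, which overlapped. Between muscle cells and all cells of *daf-16(lf)*, 0 of the 8 genes passed, against 21.1% of all genes tested by limma. Of the 8, *hsp-12.1* (0.67, adjusted p = 0.0756) and *hsp-12.2* (-1.11, adjusted p = 0.157) had an unadjusted p under 0.05, as had 4534 of all genes. *hsp-12.1* passed after quantile normalization (1.23, adjusted p = 0.00796) and median-of-ratios scaling (1.33, adjusted p = 0.0185). The muscle and intestinal markers of these all cells libraries stood at the levels of muscle cells, and their part in this was not tested. The libraries labelled wild-type all cells had 6747 and 4273 TPM of *hsp-16.48*.

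Between the double mutant and *daf-16(lf)* all cells, 4 of 8 genes passed, 1 higher and 3 lower, against 56.5% of all genes tested (median 0.86). *hsp-16.48* (-6.81 ± 1.00, adjusted p = 1.24e-05 from limma), *hsp-16.41* (-5.87 ± 0.80) and *hsp-16.2* (-3.52 ± 0.74) were lower, and *hsp-12.2* was higher by 2.19 ± 0.55 (adjusted p = 0.00241). After median-of-ratios scaling *hsp-12.2* did not pass (1.25, adjusted p = 0.113) and *hsp-12.1* was lower (-1.49, adjusted p = 0.00619), a split of 0 higher and 4 lower. The muscle markers of the same groups stood at 4787 to 5603 TPM in the double mutant and at 67604 to 67921 TPM in *daf-16(lf)*, and their part in these differences was not tested.

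The genes whose pattern was most like that of *hsp-12.6* and of *hsp-16.2* were ranked by the Pearson correlation of log2(TPM + 1) over the 24 libraries. This is a description, since libraries of a group share their genotype, cell population and scaling. For *hsp-12.6* the leading genes were C54F6.15 (r = 0.954), *dmd-10* (0.940), *sod-5* (0.917), F55B12.10 (0.917) and C31H5.7 (0.914). For *hsp-16.2* they were T27E4.2 (0.980), *ttr-24* (0.955), *hsp-16.41* (0.954), F21D9.4 (0.938) and *ppt-1* (0.928). With the 8 group means removed, the deviations of *hsp-16.2* still went with those of *hsp-16.41* (r = 0.916) and T27E4.2 (0.867) and less with *hsp-16.48* (0.456), and the next genes were Y55F3AM.13 (0.853), R11A5.3 (0.838) and Y17D7C.4 (0.832). The deviations of *hsp-12.6* went most with those of Y59E9AR.7 (0.929), Y47D3A.5 (0.888), F34H10.2 (0.875), C31H5.4 (0.868) and Y53F4B.18 (0.843). Those of *hsp-12.6* ran opposite to *hsp-16.41* (r = -0.724), T27E4.2 (-0.719) and F44E5.4 (-0.849), an inducible HSP70 gene. *hsp-12.6* was listed at 0 in all libraries labelled wild-type and in *daf-16(lf)* all cells, so it had no deviation there. Its widest spread lay within *daf-2(lf)* muscle cells, with log2(TPM + 1) of 6.75 in replicate 1 and 2.50 in replicate 2. The correlations of its deviations thus rest largely on the replicates of that group.

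Other genes with an alpha-crystallin domain behaved in several ways. Of 6 listed (*sip-1*, *hsp-17*, *hsp-25*, *hsp-43*, ZK1128.7 and Y55F3BR.6), 0 passed in muscle cells of *daf-2(lf)* against those of the double mutant (0.612% of all genes tested did) and 1 passed in all cells, higher in *daf-2(lf)* (2.43% of all genes tested). This was *sip-1*, a small heat shock gene known from the reproductive system and embryos, with 1544, 729 and 1088 TPM in *daf-2(lf)* all cells against 24.1, 20.4 and 85.4 TPM in double mutant all cells, a difference of 4.90 ± 0.99 (adjusted p = 0.00547 from limma). The 2 groups were far apart. In muscle cells *sip-1* also had 366, 136 and 116 TPM in *daf-2(lf)* against 4.12, 5.53 and 34.7 TPM in the double mutant, although that difference did not pass (4.09 ± 0.99, adjusted p = 0.0680). The 6 germline markers examined summed to 259 to 448 TPM in *daf-2(lf)* all cells and 255 to 347 TPM in double mutant all cells, and 0 of the 6 passed the test between them. *hsp-25*, whose protein is found at the attachment structures of body wall muscle, had 586, 341 and 415 TPM in *daf-2(lf)* against 68.7, 60.3, 75.3 and 87.9 TPM in wild-type muscle cells (2.57 ± 0.26, adjusted p = 1.42e-07), and 188, 307 and 407 TPM in the double mutant against 78.5, 69.9, 77.5 and 110.4 TPM in *daf-16(lf)* (1.78 ± 0.26, adjusted p = 1.55e-05). Its *daf-2(lf)* and *daf-2(+)* strains did not overlap in muscle cells, as was the case for *hsp-12.1*. In all, 3 of the 6 were higher (*sip-1*, *hsp-25* and Y55F3BR.6) and 1 lower (*hsp-17*) in *daf-2(lf)* than in wild-type muscle cells, against 32.5% of all genes tested, and 2 were higher (*hsp-25* and Y55F3BR.6) and 0 lower in the double mutant than in *daf-16(lf)* muscle cells, against 32.1% of all genes tested.

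Of 13 listed genes, *hsf-1*, *hsb-1* and 11 larger cytosolic chaperones, 1 passed in muscle cells of *daf-2(lf)* against those of the double mutant, *hsp-70* (C12C8.1), an HSP70 gene induced by heat, with 27.5 to 63.3 TPM in *daf-2(lf)* and 4.59 to 14.9 TPM in the double mutant (2.37, adjusted p = 0.0117 from limma). None of the 13 passed in all cells. Of all genes tested, 0.612% passed in muscle cells and 2.43% in all cells. Between *daf-2(lf)* and wild-type muscle cells 6 of the 13 were higher and 3 lower, against 32.5% of all genes tested that passed in either direction. The higher ones were *hsb-1*, which encodes a binding partner of HSF-1 (2.22), the constitutive HSP70 gene *hsp-1* (1.28), the HSP40 genes *dnj-12* (1.54) and *dnj-13* (1.41), *unc-45*, which encodes the myosin chaperone of muscle (2.04), and *bag-1* (1.36). The lower ones were the inducible HSP70 genes F44E5.4 (-4.76) and F44E5.5 (-2.61), which are near-identical so that their reads may be shared, and *sti-1* (-1.23), which encodes a cochaperone of HSP90. Between the double mutant and *daf-16(lf)* muscle cells 4 were higher and 5 lower, against 32.1% of all genes tested, the lower ones being *hsp-70* (-2.53), F44E5.4 (-4.33), F44E5.5 (-3.71), *hsp-90* (-0.99) and *sti-1* (-1.50). *hsf-1* itself had differences of -1.31 (adjusted p = 0.169) and -1.16 (adjusted p = 0.215) in these comparisons and did not pass.

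**Figure D5:**
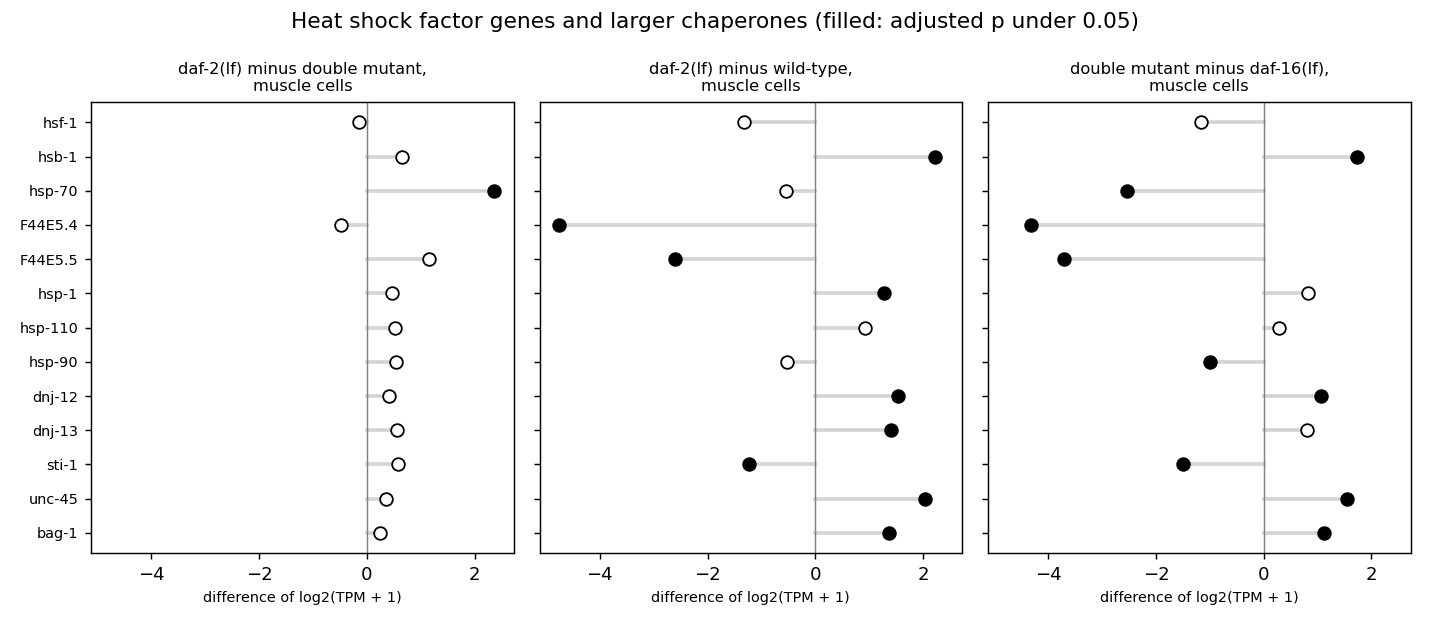
Differences of log2(TPM + 1) on the x axis for *hsf-1*, *hsb-1* and 11 larger chaperone genes on the y axis, in 3 comparisons of muscle cells. Filled points had an adjusted p under 0.05: 1 gene in *daf-2(lf)* minus the double mutant, 9 in *daf-2(lf)* minus wild-type and 9 in the double mutant minus *daf-16(lf)*, with F44E5.4 lowest at -4.76 and -4.33.

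Of 8 known DAF-16 targets listed, 1 passed in muscle cells of *daf-2(lf)* against those of the double mutant and 4 in all cells, all higher in *daf-2(lf)*, against 0.612% of all genes tested in muscle cells and 2.43% in all cells. *sod-3*, a mitochondrial superoxide dismutase gene, had 75.6 to 221 TPM in *daf-2(lf)* and 1.06 to 2.04 TPM in double mutant muscle cells, a difference of 5.89 (adjusted p = 3.82e-05 from limma), beside the 4.12 of *hsp-12.6*. In all cells *sod-3* (4.28), *mtl-1* (5.14), *dod-3* (3.58) and *lea-1* (2.87) passed, beside 5.19 for *hsp-12.6*. The median difference over the 8 small heat shock genes tested was 1.00 in muscle cells, that of the 8 targets 1.36 and that of all genes tested -0.19. In all cells the medians were 0.40 over the small heat shock genes, 2.73 over the targets and -0.06 over all genes tested.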

How the data were processed

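The deposited table gives TPM for 35749 transcripts in 24 libraries. Per the labels the authors quantified transcripts with Salmon 1.4.0 on WBcel235. TPM holds no read depth, so counting error is not known, and zeros are called listed at 0. TPM were summed to 21979 genes by transcript name (31176 exact matches, 4485 by sequence name, 88 without one). The 14714 genes that reached 1 TPM in 3 or more libraries entered limma 3.58.1 (R 4.3.3) as log2(TPM + 1), in 1 model of 8 groups with an abundance trend, and p-values were adjusted (Benjamini-Hochberg) over all genes tested, with a threshold of 0.05. The model was checked on simulated data, but the setting and outcome are not given here, and no result rests on that check. The study describes muscle replicates as independent. The p-values measure the spread between libraries, with 1 estimate per gene shared by all 8 groups. For *hsp-12.6* these include groups with every library listed at 0, which add no spread. Its *daf-2(lf)* muscle cell libraries ran from 2.50 to 6.75 in log2(TPM + 1). Its SE, intervals and p-values thus understate the spread within that group.

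All 10 small heat shock genes are named, with lists of related chaperones, other small heat shock genes and known DAF-16 targets, and the 5 genes most like *hsp-12.6* and *hsp-16.2*. These genes and lists were chosen with earlier results of these data known. Coordinates are those of WBcel235. Promoter and protein sequences were not analysed here.

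Alternatives were a pseudocount of 0.1, no filter or 4 TPM, quantile normalization, median-of-ratios scaling, a replicate block, no trend, array weights, the compared groups alone, the libraries labelled wild-type all cells set aside, the copies of *hsp-16.1* summed, and each library left out. Same-numbered libraries deviated together in *daf-16(lf)* and wild-type muscle cells (r = 0.288 to 0.683, 4 pairs), in muscle and all cells of *daf-2(lf)* (0.166 to 0.393, 3 pairs) and in those of the double mutant (0.206 to 0.441, 3 pairs), which pairs them. For *daf-2(lf)* with the double mutant, r was 0.0289 to 0.550 in all cells, but -0.277 to 0.479 in muscle cells. For muscle with all cells of *daf-16(lf)* it was -0.200 to -0.149 (2 pairs). The block was an alternative only. It gave each replicate number a single effect shared by all 8 groups, so it did not model pairs within a strain.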

Additional observations from a re-analysis of the deposited data

Results flagged for a closer look

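In *daf-16(lf)* muscle cells, *hsp-12.6* stood at 0.355 TPM in replicate 1 and was listed at 0 in the other 3 libraries, so that the whole range came from 1 library at a very low level. *hsp-12.3* had 51.1 TPM in replicate 4 of the same group, against 5.16 to 10.1 TPM in the other 3, a gap of 0.893 of the range. Replicate 4 was also the highest of wild-type muscle cells, with 94.8 TPM. In all, 17 gene-by-group sets of 4 libraries were examined. The rule is meant to set a library apart by chance in about 1 of 20 sets of normally distributed values. That rate was not checked for these TPM, and it cannot be relied on where all values but 1 are 0, as for *hsp-12.6*.

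The change with loss of *daf-2* in muscle cells was larger with DAF-16 than without it for *hsp-12.6*, by 4.22 on the log2 scale, and for F08H9.4, by 3.02. Both passed the test of the difference itself with all libraries. *hsp-12.6* lost its call in 11 of the 14 models that left out 1 muscle cell library and in 2 of the 11 other alternatives, and F08H9.4 lost its call with a pseudocount of 0.1.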

How the results depend on the processing

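No named small heat shock gene past the threshold changed direction in any of the 11 alternatives or the 24 models that left out 1 library. For *daf-2(lf)* against the double mutant, 2 genes passed in muscle cells, against 6 with array weights, whose estimate did not converge and which called 4897 of all 14714 genes tested, against 90 with equal weights, and 0 in a model of the compared groups alone. In all cells 2 passed, against 1 after quantile normalization and 1 after median-of-ratios scaling. Leaving out 1 library gave 3 to 5 genes between the double mutant and *daf-16(lf)* muscle cells (5 with all libraries), 2 to 5 between muscle and all cells of the double mutant (5), and 1 to 2 for the difference of differences in muscle cells (2), which was also 1 with a pseudocount of 0.1, without a filter and in the compared groups alone. Between muscle and all cells of *daf-16(lf)*, 0 passed, against 1 without a filter (F08H9.3), after quantile normalization, after median-of-ratios scaling, with array weights and when those labelled wild-type all cells were set aside (*hsp-12.1*). The difference of differences between cell populations had 0, against 1 with array weights. The cause of these changes was not tested. With the replicate block, 2, 2, 5, 5, 0, 5, 7, 5, 0, 2 and 0 genes passed in the 11 comparisons, and the only count that moved was that of the double mutant against *daf-16(lf)* all cells (4 without the block), where *hsp-12.1* passed. Lost calls of single genes numbered 25 among left-out libraries, where 213 kept their side, and 14 among the other alternatives, where 382 did. Low genes such as F08H9.3 and the double mutant values of *hsp-12.6* and F08H9.4 lie near 0 TPM, where depth, not known here, limits what can be told apart.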
